A study of Homo sapiens with 5 samples.

Results

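The genes described here encode secreted and membrane-bound proteases that cut the extracellular matrix, their inhibitors, the plasminogen activator system and osteopontin. The list of 9 symbols (MMP1, MMP2, MMP3, MMP14, TIMP1, TIMP3, PLAU, PLAUR and SPP1) was selected on the fold changes of MMP1 between knockout and re-expression of USP28, which are not used here. The rule kept the symbols present in each of the 3 deposited tables, and 6 of 9 met it: MMP1, MMP14, TIMP1, PLAU, PLAUR and SPP1. MMP3 is listed for the re-expression experiment only, and 2 symbols, MMP2 and TIMP3, are listed in neither. The tables together hold 12468 genes.

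RNA of HLF cells, an established human hepatocellular carcinoma line, was sequenced in 5 conditions with 1 sample each. Control cells carried a control guide RNA (sgCtrl, USP28-Ctrl), and USP28-KO cells a guide against the deubiquitinase USP28. The other conditions were USP28-KO cells transduced with an empty lentiviral vector, with HA-tagged wildtype USP28 (USP28-WT) or with an HA-tagged allele mutated in the dimer interface (USP28-M). No treatment is named for these samples. By the methods of the study, knockout cells were selected with puromycin, and transduced cells with an antibiotic. Knockout cells were picked as single clones, so clonal differences and loss of USP28 cannot be told apart. The study examined the role of USP28 dimerization in the control of MYC and in DNA damage. Its RNA-seq part compared gene expression after loss of USP28 and after expression of the wildtype or monomeric form.

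Besides the fold changes and p-values of the authors, the tables give 1 measurement per gene, an average level in log2 CPM (the reads of a gene scaled to a common library size, on the log2 scale). It is taken over all libraries of a statistical fit. USP28-Ctrl and USP28-KO libraries form the knockout fit, with 11102 genes. Vector, USP28-WT and USP28-M libraries form the re-expression fit, with 12342 genes, whose averages are equal for all 12342 genes in both re-expression tables. No value for a single condition is used, so the levels below describe HLF cells of each experiment and not the effect of USP28. There is no spread between replicates and no test between conditions. About 7690000 reads entered the knockout fit and about 30500000 the re-expression fit, judged from the steps between the lowest averages. Intervals below are 95% exact Poisson intervals for these reads and cover counting error only.

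Matrix metalloproteinases are zinc enzymes made as inactive precursors. MMP1 cleaves fibrillar collagen, MMP3 cleaves many matrix proteins and can activate other metalloproteinases, and MMP14 is anchored in the plasma membrane, where it activates MMP2. TIMP1 and TIMP3 bind the active enzymes and inhibit them. PLAU encodes urokinase, which converts plasminogen to plasmin at the cell surface when bound to its receptor PLAUR. SPP1 encodes osteopontin, a secreted phosphoprotein that binds integrins and CD44 and is cut by metalloproteinases.

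Averaged over the pooled libraries of each fit, MMP1, the interstitial collagenase, was among the most abundant mRNAs in both experiments. Its level and rank in any single condition are not shown by such an average. In the knockout fit its average was 10.74 log2 CPM (1714 CPM, interval 1685 to 1744), which placed it at rank 34 of 11102 genes. In the re-expression fit it was 11.06 log2 CPM (2140 CPM, 2124 to 2157), at rank 29 of 12342. MMP1 held 72.4% of the summed CPM of the 6 genes in the knockout fit and 72.1% in the re-expression fit. The sum came to 0.237% and 0.297% of all reads.

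MMP14 and MMP3 were far lower. MMP14, the membrane-type activator of MMP2, averaged 4.22 log2 CPM in the knockout fit (18.7 CPM, interval 15.7 to 22.0), a level above that of 25.3% of the genes. In the re-expression fit it averaged 5.33 log2 CPM (40.3 CPM, 38.1 to 42.6), above 58.7% of the genes. MMP3, or stromelysin, averaged 3.76 log2 CPM in the re-expression fit (13.5 CPM, 12.2 to 14.9), above 29.5% of its genes. The lowest average listed was 0.40 log2 CPM in the re-expression fit and higher in the knockout fit. The filter behind these limits is not given in the sources used here, and genes that are not listed may still have had reads.

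TIMP1, the secreted metalloproteinase inhibitor, averaged 8.06 log2 CPM in the knockout fit (267 CPM, interval 256 to 279) and 7.74 in the re-expression fit (213 CPM, 208 to 219). It ranked above 94.0% and 92.8% of the genes. PLAU averaged 8.17 log2 CPM (289 CPM, 277 to 301) and 8.96 (497 CPM, 489 to 505), above 94.6% and 97.7% of the genes. Its receptor PLAUR was lower, at 5.52 log2 CPM (45.8 CPM, 41.1 to 50.8) and 5.72 (52.6 CPM, or 5.65 to 5.79 log2 CPM). The median gene stood at 5.33 log2 CPM in the knockout fit and at 4.90 in the re-expression fit, so that PLAUR lay somewhat above the middle in both. SPP1 lay below it in both, with 5.12 log2 CPM (34.8 CPM, 30.7 to 39.2) and 4.62 (24.5 CPM, 22.8 to 26.4).

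Reads of a gene rise with the length of its mRNA, so the genes were compared with each other per kilobase of the longest annotated transcript. On this scale, in CPM per kilobase, the re-expression fit gave MMP1 1087, TIMP1 195, PLAU 187, PLAUR 32.7, SPP1 14.7, MMP14 10.8 and MMP3 6.71. The knockout fit gave 870 for MMP1, 244 for TIMP1, 109 for PLAU, 28.4 for PLAUR, 20.9 for SPP1 and 5.00 for MMP14. The order of the 6 genes was the same in both. MMP1 mRNA exceeded that of TIMP1, 1 of its inhibitors, 3.57-fold in the knockout fit and 5.58-fold in the re-expression fit. With other lengths (the exons of all transcripts, or the coding sequence) this ratio lay between 2.83 and 7.85. TIMP2, a further inhibitor, averaged 7.58 and 8.55 log2 CPM in these fits, and no ratio to it was taken. Against MMP14 the ratio of MMP1 was 174 in the knockout fit and 101 in the re-expression fit, and with the other lengths it lay between 114 and 208 in the former and between 65.9 and 120 in the latter. Against MMP3 it was 162 in the re-expression fit, and 161 and 165 with the other lengths. PLAU exceeded PLAUR 3.82-fold and 5.72-fold, and up to 14.3-fold with the exons of all transcripts. The order of TIMP1 and PLAU in the re-expression fit, and of PLAUR and SPP1 in the knockout fit, turned with the length used, so these neighbours were not separated. MMP1 stayed first and MMP14 last of the 6 genes with every length.

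The averages of both experiments can be set side by side, but they were normalized separately, come from different libraries and conditions, and share no control. Over the 10976 genes in both fits, the re-expression average was lower by a median log2 difference of -0.12, with the quartiles at -0.50 and 0.20. Differences are given after subtracting this median. MMP14 had the largest of the 6, 1.23 on the log2 scale (counting interval 0.98 to 1.48, 2.35-fold), and 99.0% of the shared genes had a lower difference. PLAU followed with 0.90 (0.84 to 0.97, 1.87-fold), above 96.7% of the genes. MMP1 was higher by 0.44 (0.42 to 0.47) and PLAUR by 0.32 (0.16 to 0.49), above 82.9% and 75.4% of the genes. TIMP1 and SPP1 were lower in the re-expression fit, by -0.20 (-0.27 to -0.13) and -0.38 (-0.58 to -0.18). The standard deviation over all shared genes was 0.61, so that the differences of MMP1, TIMP1, PLAUR and SPP1 were smaller than the spread of genes in general and those of MMP14 and PLAU were larger. The USP28 average itself went from 5.15 log2 CPM in the knockout fit to 9.79 in the re-expression fit, where part of the libraries carry the transgene. An average over USP28-Ctrl and USP28-KO libraries does not show whether USP28 was lost in the latter. The study itself documented the knockout by Sanger sequencing of a clone and by immunoblots. Whether USP28, the vector, the culture or the library preparation set these differences was not tested.

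Other genes of pericellular proteolysis were taken from a list of 61 symbols. Of these, 31 are listed in the knockout fit and 35, among them all 31, in the re-expression fit. Of all genes, the knockout fit lists 11102 and the re-expression fit 12342, with 10976 in both. The re-expression fit also had more reads and a lower lowest average. Whether listing of these proteolysis genes differs from that of genes in general was not tested. Of all 23 human matrix metalloproteinases looked up, 5 are listed in the knockout fit and 8 in the re-expression fit. MMP16 (4.53 and 4.44 log2 CPM), MMP24 (4.44 and 4.30) and MMP19 (3.97 and 4.27) are listed in both, whereas MMP15 (3.03) and MMP17 (2.43) are listed in the re-expression fit only. MMP14, MMP15, MMP16, MMP17 and MMP24 are membrane-type enzymes. MMP2 is listed in neither, nor are 14 of the 19 metalloproteinases that are no members of the described set, namely MMP7, MMP8, MMP9, MMP10, MMP11, MMP12, MMP13, MMP20, MMP21, MMP23B, MMP25, MMP26, MMP27 and MMP28. These include the gelatinase MMP9 and the collagenases MMP8 and MMP13.

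Of the other inhibitors, TIMP2, which also takes part in MMP2 activation by MMP14, averaged 7.58 log2 CPM in the knockout fit and 8.55 in the re-expression fit. RECK, a membrane-anchored inhibitor, averaged 4.10 and 3.73, and TIMP4 and A2M are not listed. Of the plasminogen system, ANXA2 (10.20 and 10.53 log2 CPM) and S100A10 (8.90 and 9.14), which form a plasminogen-binding complex at the cell surface, were abundant. PLAT, the tissue-type activator, averaged 4.94 and 5.99. Plasminogen itself (PLG) is not listed. FURIN, a convertase that activates MMP14, averaged 5.83 and 6.41, and BSG, an inducer of metalloproteinases, 8.68 and 8.71. Of 8 genes for receptors of osteopontin, 6 are listed in both fits, and ITGB1 (10.57 and 10.30) and CD44 (10.22 and 10.25) were the highest. The next was ITGAV in the knockout fit (7.58, against 6.78 in the re-expression fit) and ITGA5 in the re-expression fit (8.03, against 7.18 in the knockout fit).

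In GENCODE release 29 (GRCh38), MMP1 (NCBI gene 4312) lies on the minus strand of chromosome 11 from 102789920 to 102798160, in 10 exons. MMP3 (4314) follows on the same strand from 102835801 to 102843803, 37.6 kb from MMP1. USP28, the targeted gene, lies on the same chromosome, 10954070 bases further on. The other genes are spread over the genome, MMP14 (4323) on chromosome 14 from 22836557 to 22849027, TIMP1 (7076) on chromosome X from 47582313 to 47586789, PLAU (5328) on chromosome 10 from 73909177 to 73917497, PLAUR (5329) on chromosome 19 from 43646095 to 43670547 and SPP1 (6696) on chromosome 4 from 87975650 to 87983426. Reads had been aligned to hg19, and no value was joined by position.

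Promoter windows of 250 bases before to 50 after the RefSeq start (GRCh38.p14) were searched on both strands for letters bound by factors known for these genes, with windows at hand for 5 of the 6 genes, all but MMP1. TGANTCA, bound by AP-1, was found in the window of 1 gene, PLAUR, and in 7.71% of all 35116 windows. AGGAAG, bound by ETS factors, was found for 3 of the 5 genes and in 33.6% of all windows. A gene counted if any of its windows matched, and PLAU has 2, so counts of genes and shares of windows are not quite alike. The TATA box TATAAA and the E-box CACGTG, bound by MYC, were found for 0 of the 5 genes, against 11.5% and 7.26% of all windows. A match of these letters is not a measured site, and its absence from so short a window says nothing of the factor. The matches with their neighbouring bases are shown 5′ to 3′ on the strand of the gene, with the matched letters in capitals, since AP-1 and ETS sites are the best known elements of protease promoters. They begin 186 and 15 bases before the start of PLAUR, 87 before that of TIMP1 and 221 before that of PLAU. The starts used for all 5 genes lie inside the annotated gene, as do the stretches shown. Annotated exons overlap the part before the start in every window of these genes. The start used for the PLAU stretch is 1 of 2 with a window. The stretches lie at chr19:43670338-43670366 and chr19:43670170-43670195 on the minus strand, and at chrX:47582338-47582365 and chr10:73910900-73910927 on the plus strand.
PLAUR, AP-1: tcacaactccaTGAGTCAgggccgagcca
PLAUR, ETS on the opposite strand: aaaactgcctcCTTCCTgaggccaga
TIMP1, ETS: gtaatgcatccAGGAAGcctggaggcct
PLAU, ETS: aggtgcatgggAGGAAGcacggagaatt

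HLF cells were checked against marker genes of their labelled origin. Of 10 hepatocyte genes 8, ALB and HNF4A among them, are listed in neither fit, and FGB is the one listed in both. SERPINA1 is listed in the re-expression fit only, at 1.88 log2 CPM. FGB stood at rank 3712 of 11102 in the knockout fit, above the median of 5.33 log2 CPM, and at 3.20 log2 CPM in the re-expression fit, below its median of 4.90. All 5 mesenchymal genes are listed in both, from VIM at 11.71 and 11.69 down to ZEB1 at 4.31 and 3.49, below both medians. The epithelial keratins KRT8 (11.18 and 12.02) and KRT18 (10.66 and 11.21) are listed in both, whereas CDH1, EPCAM and KRT19 are listed in neither.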

How the data were processed

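RNA-seq libraries of HLF cells were aligned by the authors with STAR 2.5.4 to hg19 and fitted with edgeR 3.26.8 (versions per the labels, as is bcl2fastq 2.20). The authors' counting, annotation, filter and number of libraries are not given in the sources used here. The deposited tables hold an average log2 CPM per gene, which was used, and the authors' fold changes, p-values and adjusted p-values (with an F statistic for re-expression), which were not. 0 columns of per-sample values lacked a sample. Members and lists were chosen with earlier results of these data known. All members are named, and of the wider list every listed matrix metalloproteinase. Up to 3 genes of highest average per class are named too, beside further examples and absent genes chosen after their values were seen. 1 gene was left out of the wider list, its counts and its plot and is not reported here.

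Reads per fit were estimated as the spacing of the 1000 lowest average CPM values. Within 0.1 reads of a step lay 97.0% of these values in the knockout fit and 71.6% in the re-expression fit. Spacing and offset of the steps were both fitted to these same values. Evenly spread values would give 20% on steps fixed beforehand, so 20% is not the share that chance gives here. Depth per library is unknown. The few reads that edgeR adds to each library before averaging were not removed. The estimate was tested on simulated data with exact steps, which the averages of the re-expression fit follow less closely, so its depth is the less certain. Intervals for differences use a normal approximation. Lengths came from GENCODE release 29. Alternatives were other lengths, centrings and gene sets. Tables were read with pandas 2.3.3 and numpy 2.4.6 under Python 3.11.15, intervals came from scipy 1.17.1, and plots were drawn with matplotlib 3.10.9.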

Additional observations from a re-analysis of the deposited data

How the results depend on the processing

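Differences between the fits kept their sign under all 18 alternatives. Without subtraction of the median, MMP1 was 0.32, TIMP1 -0.32 and PLAU 0.78. With the shared genes rescaled to the same total these were 0.34, -0.31 and 0.80. With the median over genes at a log2 CPM of 3 or more, MMP1 was 0.40. The other 11 values moved by less than their counting interval.

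Levels per kilobase in the re-expression fit depended on the length. With the exons of all transcripts, log2 CPM per kilobase was 7.11 for TIMP1, 7.40 for PLAU, 3.56 for PLAUR, 3.40 for SPP1 and 3.18 for MMP14, and that of MMP1, which has 1 transcript, did not move. With the longest coding sequence, chosen after seeing the data, it was 10.57 for MMP1, 8.42 for TIMP1, 8.59 for PLAU, 5.71 for PLAUR, 4.70 for SPP1 and 4.53 for MMP14. The length of the RefSeq protein was not run. Percentiles moved past the counting interval in 16 of 24 alternatives that counted fewer genes. With the floor of the knockout fit, 33 of the wider list are listed in the re-expression fit in place of 35. The counts of promoter matches did not move with the window.

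No paired analysis was possible because each condition has 1 sample and no value per library was used. No replicate was left out for the same reason. Depth limits MMP14 in the knockout fit most, with about 144 reads over all its libraries.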

Other observations

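Among further proteases, membrane-bound or secreted, 10 of 12 adamalysins are listed in both fits. ADAM9 was the highest, at 8.61 log2 CPM in the knockout fit and 7.82 in the re-expression fit, and ADAM12 (5.97 and 6.65) and ADAM19 (6.49 and 6.48) followed in the re-expression fit. ADAMTS1, a secreted protease of proteoglycans, averaged 7.11 and 5.55. Of the lysosomal cathepsins, CTSB (9.08 and 9.66) and CTSD (8.56 and 9.53) had averages above that of PLAU in both fits. CTSL (6.70 and 6.34) lay below PLAU in both, and CTSK, the collagenolytic cathepsin, is not listed. These averages were not set per kilobase.

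SERPINE2, an inhibitor of urokinase and thrombin, averaged 4.90 log2 CPM in the knockout fit and 2.11 in the re-expression fit, and SERPINB2, another inhibitor of urokinase, is listed in the re-expression fit only, at 0.96. Markers of other cell types were mostly not listed. Of 4 endothelial genes 0 are listed in either fit. Of 5 macrophage genes CD68, which many cell lines express, is the one listed in both, at 6.86 and 7.73. CD14 is listed in the re-expression fit only, at 0.93, and PTPRC in neither. Of 6 fibroblast genes PDGFRB (5.76 and 6.11) and COL1A1 (4.47 and 2.84) are listed in both. LUM is listed in the knockout fit only, at 3.17, THY1 in the re-expression fit only, at 1.65, and COL1A2 and DCN in neither.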
